A study of Mus musculus with 6 samples.

Results

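The 10 genes described here act in the tail bud, the growing posterior end of the mouse embryo: T, Wnt3a, Wnt5a, Wnt8a, Cdx1, Cdx2, Cdx4, Evx1, Sp5 and Rspo3. They were taken by the gene name that the array gives each probe, out of 19499 named genes on the array, and all 10 passed the filter on dim probes and were tested among 15023 genes. Each gene was read by 1 probe, except Rspo3 with 2. Gene expression was measured on 1-colour Agilent arrays in RNA of whole embryos at embryonic day (E) 8.5, with 1 array per sample. The 3 Brg1d/d samples are conditional knockouts of Brg1, the gene (symbol Smarca4) of a motor protein in SWI/SNF complexes, which move nucleosomes, and the 3 Brg1fl/fl samples carry the floxed, undeleted gene and are called controls 1, 2 and 3. Tamoxifen was given to the mothers in both groups. The sources used here do not give the driver of the recombinase, the time of injection or the number of embryos per sample. Samples of a genotype are numbered as replicates, with no statement that they came from separate litters, and with 3 arrays in each genotype all differences are of limited precision.

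As background, the vertebrate body axis lengthens from a pool of progenitor cells in the primitive streak and later in the tail bud. Wnt ligands secreted there keep the progenitors going: Wnt3a and Wnt8a signal through beta-catenin, Wnt5a acts mainly on cell movement, and Rspo3 is an R-spondin, a secreted protein that raises the sensitivity of cells to Wnt. T (brachyury), the caudal homeobox genes Cdx1, Cdx2 and Cdx4, the homeobox gene Evx1 and the zinc finger gene Sp5 encode transcription factors of these cells, and several of them are direct targets of Wnt signalling. T is also active in the notochord, Cdx2 in trophoblast and hindgut, and several of these genes in the allantois, so the whole embryo sums several sources.

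The upstream sequences of 5 of the genes are shown because the genotypes differed most for Wnt3a, Cdx4 and Evx1 among them, while T and Sp5, textbook targets of Wnt signalling, gave small differences. RefSeq promoters of build GRCm38.p6 were matched for 6 of the 10 genes, and the window is the 250 bases before the annotated start, 5′ to 3′ on the gene's strand. Capitals mark 7-letter words bound by TCF/LEF factors, which carry the Wnt signal to DNA (CTTTGAA and CTTTGAT, and likewise CTTTGTA and CTTTGTT), and the word TTTATG, part of the site of caudal factors, each searched on both strands with no overlap between the word sets.
Wnt3a, chr11:59290752-59291001, minus strand: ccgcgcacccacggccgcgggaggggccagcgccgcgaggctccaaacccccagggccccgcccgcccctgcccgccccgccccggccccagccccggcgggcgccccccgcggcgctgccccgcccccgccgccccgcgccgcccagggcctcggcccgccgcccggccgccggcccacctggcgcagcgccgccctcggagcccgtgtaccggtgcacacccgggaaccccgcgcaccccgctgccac
Cdx4, chrX:103321148-103321397, plus strand: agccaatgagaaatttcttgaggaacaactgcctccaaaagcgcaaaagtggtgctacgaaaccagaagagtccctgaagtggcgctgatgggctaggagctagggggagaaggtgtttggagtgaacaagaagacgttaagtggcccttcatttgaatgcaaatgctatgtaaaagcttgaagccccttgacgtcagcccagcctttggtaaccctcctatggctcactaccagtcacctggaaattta
Evx1, chr6:52313248-52313497, plus strand: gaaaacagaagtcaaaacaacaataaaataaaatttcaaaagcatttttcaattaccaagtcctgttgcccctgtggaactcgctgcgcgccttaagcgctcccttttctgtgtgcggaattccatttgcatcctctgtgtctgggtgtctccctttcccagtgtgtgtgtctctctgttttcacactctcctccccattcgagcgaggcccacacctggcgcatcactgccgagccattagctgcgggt
T, chr17:8434173-8434422, plus strand: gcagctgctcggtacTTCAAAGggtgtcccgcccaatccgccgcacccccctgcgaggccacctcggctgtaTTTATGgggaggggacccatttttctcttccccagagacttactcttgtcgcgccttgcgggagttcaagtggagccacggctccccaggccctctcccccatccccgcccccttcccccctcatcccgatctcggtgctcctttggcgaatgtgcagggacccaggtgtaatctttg
Sp5, chr2:70474673-70474922, plus strand: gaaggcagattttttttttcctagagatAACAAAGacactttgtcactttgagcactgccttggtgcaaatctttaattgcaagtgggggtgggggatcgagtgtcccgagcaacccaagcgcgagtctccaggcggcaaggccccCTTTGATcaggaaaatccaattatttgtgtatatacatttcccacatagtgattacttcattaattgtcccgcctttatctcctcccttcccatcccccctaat
A TCF/LEF word stood in 2 of the 6 member promoters, those of T (starting 235 bases before the start of transcription) and Sp5 (222 and 104 bases before it). Of all 32851 promoters of the reference table, 14.8% held such a word in the same window. The caudal word stood 178 bases before the start of T and in no other of the 6 windows, against 10.8% of all promoters. A match is a string of letters and no measured binding site, and the windows do not reach the distal enhancers of these genes.

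Levels below are log2 processed signals minus the 75th percentile of the array, and differences are Brg1d/d minus Brg1fl/fl on that scale, with the standard error (SE) of the limma fit on 3 and 3 arrays and its p-value adjusted over all 27840 probes by the method of Benjamini and Hochberg. Levels of different genes come from different probes and are not set against one another. The targeted gene was lower in every Brg1d/d sample: its 3 Smarca4 probes differed by -2.69, -2.25 and -2.08 (limma adjusted p 0.0114, 0.00538 and 0.0129), although no source used here names the deleted exons and the probes need not lie in them. The arrays gave signal well above background at 68.5% to 73.5% of 43379 spots. Brg1d/d 2 was scanned on the same day as the 3 controls, and Brg1d/d 1 and 3 on other days. These last 2 also had a far lower signal of the brightest spike-in control (12934 and 6905 units against 208550 to 241121). That split is called the labelling batch here as a shorthand only. No label names it, and the labels do not say whether the labelling or only the spike-in differed. The difference of Brg1d/d 2 from the mean of the controls, called the same-day difference, is therefore given beside each member's difference and each list's median. The 3 controls shared 1 slide and each Brg1d/d array had its own, so slide and genotype cannot be told apart. Because whole embryos were used, fewer tail bud cells and less RNA per cell cannot be told apart either.

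Of the 10 genes, Wnt3a and Cdx4 fell in Brg1d/d and Wnt8a rose, and 7 did not pass the threshold of an adjusted p of 0.05. Over all genes 10.6% were called, 5.26% higher and 5.32% lower. The 10 genes were chosen with earlier results of these data known, so their count is a description and no test of the group. The median difference of the 10 was -0.25, with a same-day median of 0.05, beside a median of 0.07 over all genes tested. Levels of the genotypes did not overlap for 4 of the 10 genes, Wnt3a, Cdx4, Wnt8a and Evx1, where 41.9% of all genes tested did not overlap. Because of this, the direction of these 4 had to be the same in each Brg1d/d array against the mean of the controls. With the labelling batch or scan day as a block, the difference rests on Brg1d/d 2 alone. The sizes were then close, at -1.61 for Wnt3a, 2.30 for Wnt8a, -1.72 for Cdx4 and -1.04 for Evx1. None of the 10 was called with either block.

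**Figure D1:**
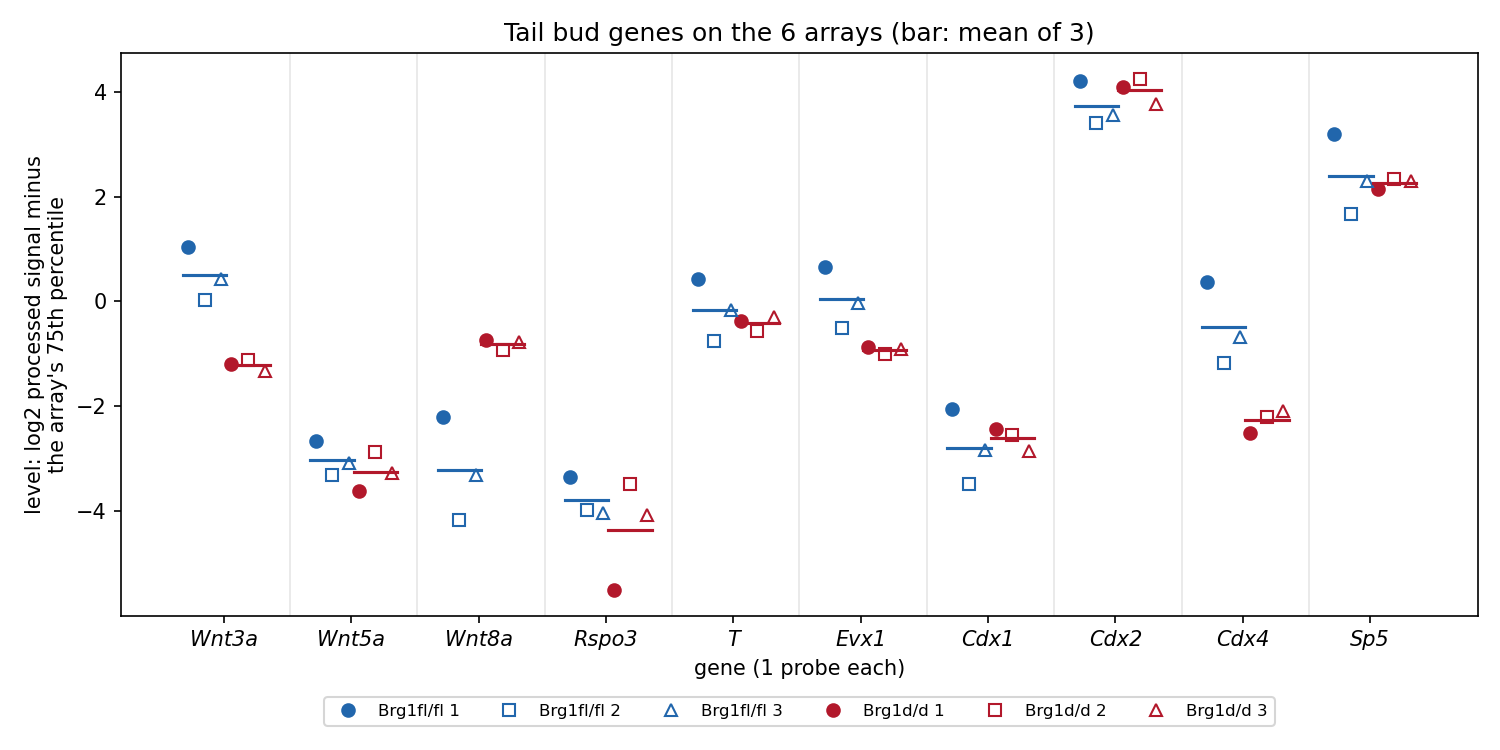
Level of each of the 10 genes on every array (log2 processed signal minus the array's 75th percentile); blue marks are the 3 controls, red marks the 3 Brg1d/d samples and bars the means of 3. Wnt3a, Evx1 and Cdx4 lay lower and Wnt8a higher in all 3 Brg1d/d samples, and control 1 was the highest control for all 10 genes.

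Among the secreted ligands, Wnt3a, the Wnt of the tail bud that is needed to form the posterior trunk and tail, had levels of -1.19, -1.11 and -1.33 in Brg1d/d 1, 2 and 3 against 1.04, 0.02 and 0.43 in controls 1, 2 and 3. Every Brg1d/d sample was below every control, with a gap of 1.14 between the nearest samples. The unscaled signal was 715, 449 and 629 units against 2054, 1027 and 1288 units, lower on the Brg1d/d arrays also before scaling. The difference was -1.71 ± 0.27 (SE), which is 3.27-fold lower (limma adjusted p 0.0180; 95% interval -2.36 to -1.06). The same-day difference was -1.61, and Brg1d/d 1 and 3 differed from the controls by -1.68 and -1.83. Wnt3a missed the threshold without Brg1d/d 1 (-1.72, limma adjusted p 0.0815) and without Brg1d/d 3 (-1.65, 0.0785), and over all alternatives its adjusted p ranged from 0.00100 to 0.380 with a difference of -1.94 to -1.42.

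Wnt8a, a Wnt of the early primitive streak that is switched off as the embryo grows, moved the other way. Its levels were -0.73, -0.93 and -0.78 in Brg1d/d 1, 2 and 3 against -2.20, -4.17 and -3.31 in controls 1, 2 and 3. All 3 Brg1d/d samples were above all controls and lay within 0.20 of one another, whereas the controls spanned 1.97. In unscaled units this was 982, 510 and 922 against 218, 56.2 and 96.3. The rise was 2.41 ± 0.47 (SE), which is 5.33-fold (limma adjusted p 0.0306; 95% interval 1.29 to 3.54), the largest absolute difference of the 10 genes. The same-day difference was 2.30. Wnt8a missed the threshold without Brg1d/d 1 (2.37, limma adjusted p 0.117), Brg1d/d 3 (2.40, 0.108), control 2 (1.94, 0.0731) or control 3 (2.37, 0.0743), and over all alternatives the adjusted p ranged from 0.000467 to 0.453 with a difference of 1.90 to 3.17.

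Wnt5a, which steers cell movement during elongation, did not pass. Its levels of -3.62, -2.88 and -3.28 in Brg1d/d overlapped those of the controls at -2.67, -3.32 and -3.09. The difference was -0.24 ± 0.26 (SE; limma adjusted p 0.551), its 95% interval ran from -0.86 to 0.39, and the same-day difference had the opposite sign at 0.14. Wnt3a, Wnt5a and Wnt8a thus gave a fall, a difference inside its error and a rise.

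Rspo3, the R-spondin of the posterior embryo, had the widest spread among the Brg1d/d samples of the 10 genes (SD 1.04), through Brg1d/d 1. Its brighter probe read -5.51, -3.49 and -4.08 in Brg1d/d 1, 2 and 3 against -3.34, -3.98 and -4.04 in the controls. Brg1d/d 1 lay far below the other 5 arrays and the groups overlapped. The difference was -0.57 ± 0.52 (SE; limma adjusted p 0.467), the same-day difference had the opposite sign at 0.30, and without Brg1d/d 1 it was 0.0053. The second probe was well above background on 2 of 3 Brg1d/d and 1 of 3 control arrays and was not tested. The probes that read Wnt5a and Rspo3 are printed because each spans more genome than its own 60 bases and so crosses an intron in the array's annotation (build mm7).
Wnt5a probe, chr14:25948244-25952114: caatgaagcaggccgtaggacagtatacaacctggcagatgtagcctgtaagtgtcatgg
Rspo3 brighter probe, chr10:29285381-29287100: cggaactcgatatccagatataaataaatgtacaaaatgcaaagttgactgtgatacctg
The Wnt5a probe spans 3871 bases of the genome and the brighter Rspo3 probe 1720.

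T, the T-box factor that defines the streak, the tail bud and the notochord, was the best measured of the genes, with 10 spots on each array whose SD was 0.048 to 0.084. Its levels were -0.38, -0.57 and -0.30 in Brg1d/d 1, 2 and 3 against 0.43, -0.75 and -0.16 in controls 1, 2 and 3. The 3 Brg1d/d values fell inside the range of the controls. The difference was -0.26 ± 0.30 (SE; limma adjusted p 0.580), with a 95% interval of -0.99 to 0.47. The same-day difference was -0.41, and without control 1 the difference was 0.04.

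Evx1, a homeobox factor of the posterior streak and tail bud, had levels of -0.87, -0.997 and -0.91 in Brg1d/d 1, 2 and 3 against 0.65, -0.50 and -0.04 in the controls. The Brg1d/d samples lay within 0.13 of one another and below every control, 0.37 from the nearest. Before scaling the groups overlapped, with 889, 486 and 840 units in Brg1d/d 1, 2 and 3 against 1569, 715 and 934 units in the controls. The 75th percentile used for scaling was 1627 and 1582 units on Brg1d/d 1 and 3 and 958 to 1010 units on the other arrays. The difference was -0.97 ± 0.29 (SE), or 1.95-fold lower, with an unadjusted limma p of 0.0147 that did not pass after adjustment (0.0860). The same-day difference was -1.04. Among the 19 other settings tried Evx1 passed only with array weights (-0.54, limma adjusted p 0.0356), and its adjusted p otherwise reached up to 0.570.

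The 3 caudal genes, which set posterior identity and activate Hox genes, did not go together. Cdx4 had levels of -2.50, -2.21 and -2.09 in Brg1d/d 1, 2 and 3 against 0.38, -1.17 and -0.68 in controls 1, 2 and 3. Every Brg1d/d sample was below every control, by at least 0.91. It fell by 1.78 ± 0.39 (SE), which is 3.43-fold (limma adjusted p 0.0421; 95% interval -2.72 to -0.83), and the same-day difference was -1.72. The call was close to the threshold: it was lost without Brg1d/d 1 (-1.66, limma adjusted p 0.150), Brg1d/d 2 (-1.80, 0.0562), Brg1d/d 3 (-1.87, 0.121), control 2 (-2.12, 0.0615) or control 3 (-1.87, 0.0815) and kept without control 1 (-1.34), with an adjusted p of 0.00602 to 0.488 over all alternatives.

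Cdx4 lies on the X chromosome, and the samples differed in their sex-linked RNA. The 4 Y-linked genes read (Ddx3y, Eif2s3y, Kdm5d and Uty) were well above background in all 3 Brg1d/d samples and in controls 1 and 2 but not in control 3. Xist, which is made from an inactive X chromosome, stood at -0.96, 0.60 and 1.61 in Brg1d/d 1, 2 and 3 and at -5.91, -8.59 and 3.57 in controls 1, 2 and 3. The Brg1d/d samples thus held both Xist and Y-linked RNA, while controls 1 and 2 were high in Y-linked genes and low in Xist and control 3 was the reverse. Cdx4 in control 3, at -0.68, lay between controls 1 and 2, and the part of sex in its difference was not tested.

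Cdx2, the caudal gene that is also active in trophoblast and hindgut, had levels of 4.10, 4.25 and 3.76 in Brg1d/d against 4.20, 3.41 and 3.56 in the controls. The groups overlapped through control 1. The difference was 0.32 ± 0.26 (SE; limma adjusted p 0.421), with a 95% interval of -0.31 to 0.94 and a same-day difference of 0.53. Trophoblast markers moved in the same samples: of 11 listed genes 8 were tested, 4 of which rose (among them Elf5 by 3.23, Tfap2c by 2.40 and Ascl2 by 2.36) and 1 fell (Krt7, by 2.32), with a median of 1.89 (same-day 1.89). The log2 of their summed scaled signal was 4.02 to 4.59 in Brg1d/d and 3.46 to 3.86 in the controls, and of the defining markers Tpbpa, of the spongiotrophoblast, was not well above background on any array and Gcm1, of the labyrinth, only on 1 control array. Esx1, also of the labyrinth, and Prl3d1, of giant cells, were well above background on all 6 arrays, with differences of 1.10 and 3.15 that did not pass (limma adjusted p 0.474 and 0.107). Of 6 hindgut and definitive endoderm markers, Sox17 (1.01) and Trh (1.61) rose and 4 did not pass (median 0.68, same-day 0.59). Their summed level was 3.59 to 3.69 in Brg1d/d and 2.63, 3.15 and 3.53 in controls 1, 2 and 3. That sum is carried by bright probes such as that of Cldn6, which did not pass. Cldn6 read 2.85, 2.57 and 2.61 in Brg1d/d against 1.09, 2.33 and 2.88 in controls 1, 2 and 3. The part of either tissue in the Cdx2 level was not tested.

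Cdx1 read -2.43, -2.54 and -2.86 in Brg1d/d 1, 2 and 3 against -2.05, -3.48 and -2.84 in the controls. The Brg1d/d values lay inside the control range, and the difference was 0.18 ± 0.36 (SE; limma adjusted p 0.754; 95% interval -0.69 to 1.05; same-day 0.25). Sp5, a direct Wnt target that represses other Wnt targets, read 2.14, 2.34 and 2.31 against 3.19, 1.68 and 2.31. It too stayed inside the control range, at -0.13 ± 0.37 (SE; limma adjusted p 0.828; 95% interval -1.02 to 0.76; same-day -0.05). The intervals of Cdx1, Cdx2, Sp5 and T reach up to 1.05 higher (Cdx1) and 1.02 lower (Sp5), so these data do not show that the 4 genes were alike in both genotypes.

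**Figure D2:**
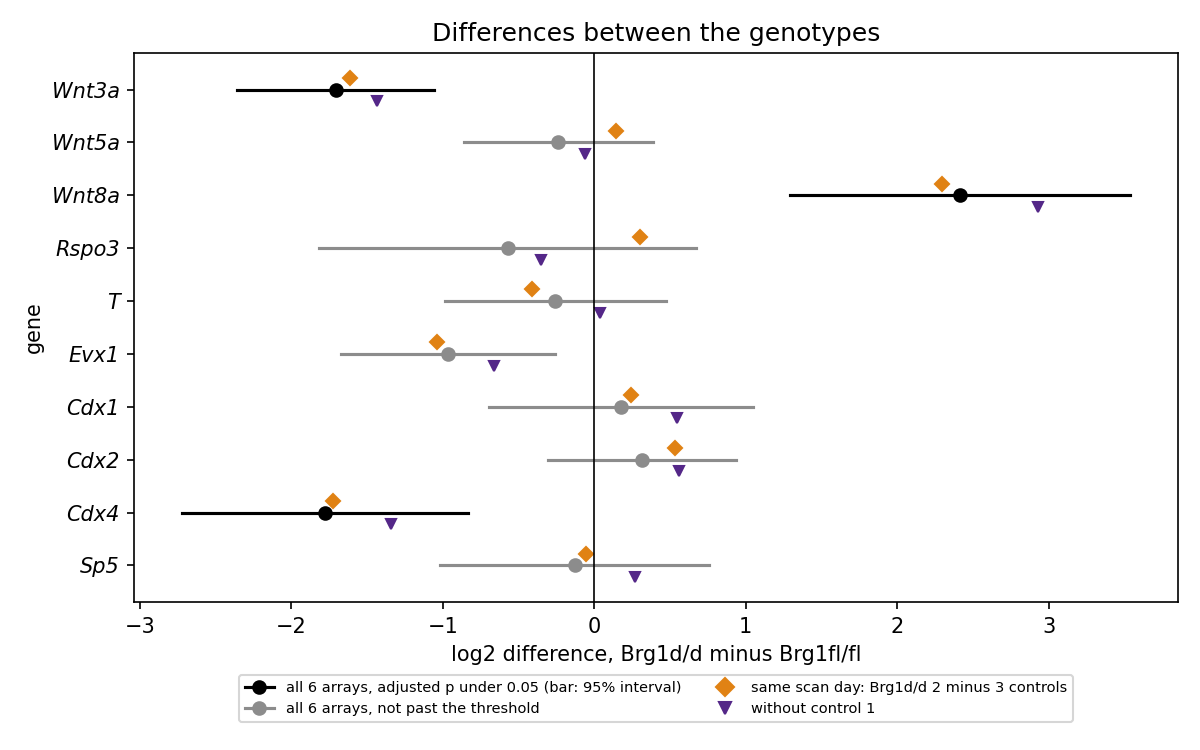
Log2 difference of each gene, Brg1d/d minus Brg1fl/fl: circles and bars are the estimate over all 6 arrays and its 95% interval (black where the limma adjusted p is under 0.05), diamonds the same-day difference of Brg1d/d 2 and triangles the difference without control 1. The intervals of Wnt3a, Cdx4, Evx1 and Wnt8a exclude 0. For these 4 genes the diamonds and triangles lie on the same side of 0 as the circles, which follows from groups that do not overlap.

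The controls differed from one another in these genes more than the Brg1d/d samples did. Control 1 was the highest control for all 10 genes, against 47.2% of all genes tested, and for 9 of the 10 the order was control 1, then control 3, then control 2, against 20.1% of all genes. Rspo3 was the exception, with control 2 at -3.98 just above control 3 at -4.04. Control 1 exceeded the mean of controls 2 and 3 by 0.53 (Wnt5a) to 1.54 (Wnt8a), with a median of 0.90 beside 0.07 over all genes. The median SD was 0.58 among the controls and 0.18 among the Brg1d/d samples, and the controls had the larger SD for 8 of the 10 genes, all but Wnt5a and Rspo3. Over all genes the medians were 0.23 and 0.20 and the controls had the larger SD in 55.2%. The Brg1d/d samples each held both Xist and Y-linked RNA and the controls each mainly one or the other, and the part of the number of embryos per sample in these spreads was not tested.

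Markers of extraembryonic tissue also parted control 1 from the other controls. The summed level of 10 yolk sac endoderm markers was 6.49 in control 1 against 8.63 and 8.68 in controls 2 and 3 and 8.25 to 8.48 in Brg1d/d, and each of the 10 was below the mean of the other controls there. The summed level of 9 primitive erythroid markers was 6.14 in control 1, 7.99 and 8.15 in controls 2 and 3, and 6.02 to 6.30 in Brg1d/d. No yolk sac marker passed between the genotypes (median difference 0.55, same-day 0.48; Amn, of smallest p, 1.34 ± 0.70 SE, limma adjusted p 0.229) and 1 erythroid marker fell (Hemgn; median -0.80, same-day -0.81). Hemgn differed by -5.56, but it was well above background on 2 of the 3 Brg1d/d arrays and passed the filter through the controls, so the size of its fall is uncertain. The part of these tissues in the tail bud values was not tested. Without control 1 the differences were -1.44 for Wnt3a, -1.34 for Cdx4, -0.66 for Evx1 and 2.93 for Wnt8a, and the same 3 genes passed.

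Each gene was also read relative to T within its array, a scale chosen after the values had been seen because T had the same order of controls as most of the other genes. The narrower range of the controls on that scale, for 9 of 9 genes, follows from this choice and is a description: it went from 1.15 to 0.13 for Evx1, from 0.65 to 0.53 for Wnt5a and only from 0.70 to 0.65 for Rspo3. The Brg1d/d samples spread further apart on it for 8 of the 9 genes, against 56.3% of all genes tested other than T. For Wnt3a the range went from 0.22 to 0.49. Wnt3a over T was 1.45 lower in Brg1d/d, Cdx4 over T 1.52 lower and Evx1 over T 0.71 lower, while Wnt8a over T was 2.67 higher. The groups did not overlap for these 4 of 9 genes, where 26.3% of all genes tested did not overlap relative to T. Each had an exact two-sided permutation p of 0.1, the smallest that 3 against 3 arrays allow, which is 0.225 after adjustment over the 9 comparisons. The other 5 overlapped: Cdx2 (0.57), Cdx1 (0.44), Sp5 (0.13), Wnt5a (0.02) and Rspo3 (-0.31), with exact permutation p from 0.2 to 1. A ratio to T shows unequal change of both genes and does not show that T was unchanged.

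**Figure D3:**
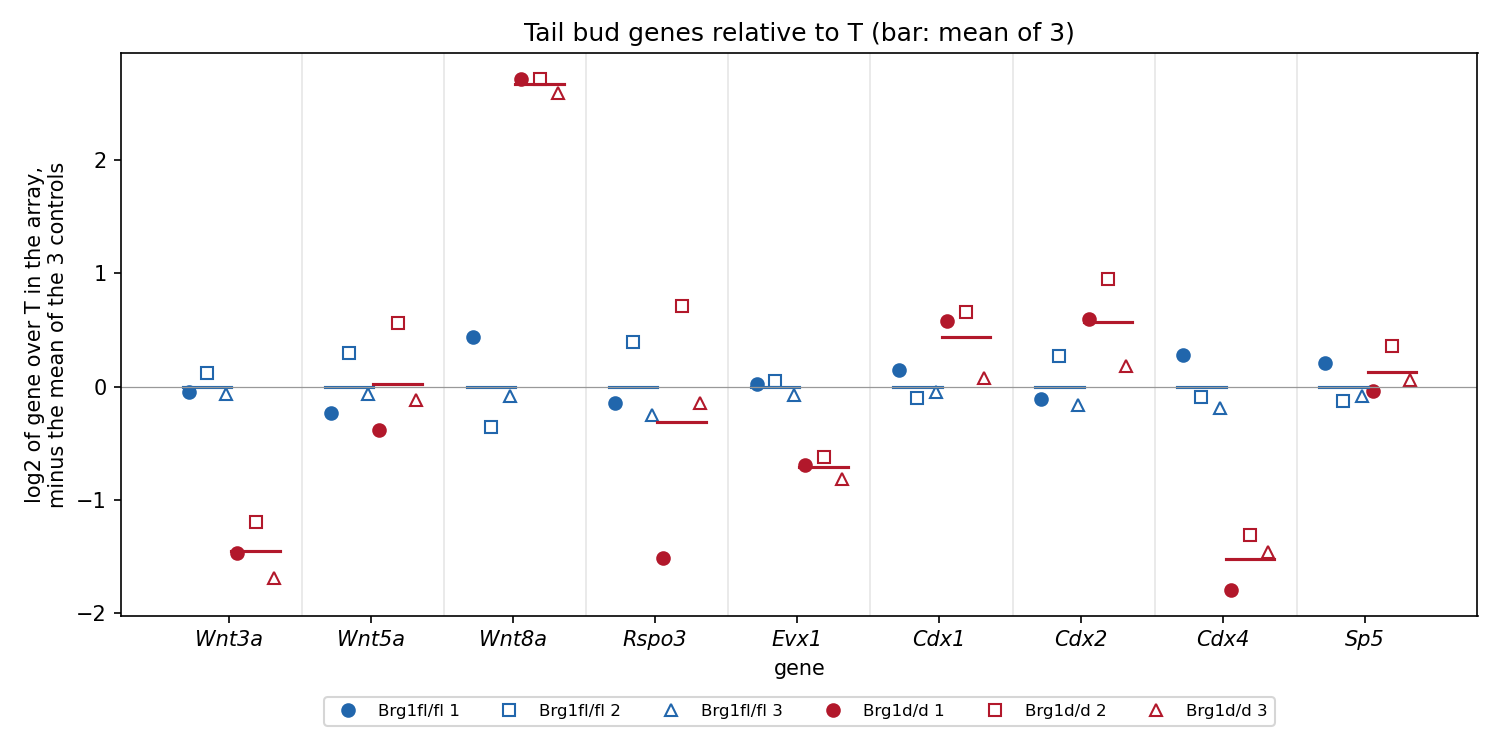
Log2 ratio of each gene to T in the same array, minus the mean ratio of the 3 controls; blue marks are controls, red marks Brg1d/d samples and bars the means of 3. Wnt3a, Evx1 and Cdx4 lay below and Wnt8a above all controls in every Brg1d/d sample, and the other 5 genes overlapped.

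Other genes of the same tissue and pathway were read from lists of 22 tail bud and presomitic mesoderm genes, 16 further Wnt ligands, 28 receptors and ligand-handling genes and 23 transducers and feedback targets. Of the tail bud and presomitic genes 18 were tested, of which 4 fell and none rose, with a median difference of -0.33 (same-day -0.43). Tbx6, the T-box factor that commits cells to paraxial mesoderm, had levels of -0.94, -0.62 and -1.10 in Brg1d/d against 1.88, 0.81 and 1.54 in the controls, a fall of 2.30 ± 0.30 (SE; limma adjusted p 0.0107). The Notch ligand gene Dll1 fell by 1.68, Lfng, a modifier of Notch in the segmentation clock, by 2.43, and Fgf17 by 2.51, but these last 2 were well above background on only 1 and 2 of the 3 Brg1d/d arrays and passed the filter through the controls, so the sizes of their falls are uncertain. The summed level of this list was 4.07 to 4.14 in Brg1d/d and 5.002, 4.09 and 4.33 in controls 1, 2 and 3. That sum is carried by bright probes such as that of Epha1 (2.41, 2.53 and 2.35 in Brg1d/d against 2.26, 1.62 and 2.09, not passed), whereas the 4 genes that fell were each higher in control 2 than in any Brg1d/d sample. Against the mean of the other controls, control 1 was above it for 18 of the 18 tested genes.

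Among 15 tested further Wnt ligands, Wnt2, a ligand of the allantois and heart region, fell by 1.60, Wnt9b rose by 1.46, and 13 did not pass (median -0.42, same-day -0.73). Among 27 tested receptors and handling genes, Fzd5, a Frizzled receptor, fell by 1.63, Rspo1, another R-spondin, fell by 1.60 and the co-receptor gene Lrp6 rose by 1.02, with 24 not passing (median -0.24, same-day -0.13). Among 23 transducers and targets, 19 did not pass (median -0.08, same-day -0.12). Nkd2 (-1.92), Nkd1 (-1.70) and Notum (-1.50), which dampen Wnt signalling, fell, and Dkk1, a secreted antagonist of it, rose by 1.18. Axin2 (0.12), Lef1 (-0.55) and Tcf7 (0.02) were among those that did not pass, so the list did not move in 1 direction. In these 4 lists together 13 of 83 tested genes were called, 10 lower and 3 higher, beside 10.6% of all genes. The lists were chosen with earlier results of these data known, so this count is a description and no test of the pathway. When only probes well above background on all 6 arrays were tested, 11 of 77 list genes were called, 8 lower and 3 higher. Over all genes 1401 of 14205 were then called, 736 lower and 665 higher.

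Of 8 markers of the primitive streak and nascent mesoderm, all of which were tested, 3 rose and none fell, with a median difference of 1.06 (same-day 0.72). Eomes, also a trophoblast gene, rose by 3.07, Mesp1, a factor of the earliest mesoderm, by 1.99, and Lhx1 by 1.35. The summed level of these 8 was 1.64 to 1.95 in Brg1d/d and 0.68 to 1.35 in the controls. That sum is carried by the brighter probes of Lhx1 and Snai1, and Snai1 did not pass (-0.24). Of 5 tested notochord markers none passed; Chrd had the smallest p, at 1.01 ± 0.31 (SE; limma adjusted p 0.0881), and the list's median was 0.33 (same-day -0.05). The allantois and extraembryonic mesoderm markers, 6 in number, held 1 fall (Vcam1, -2.73) and 1 rise (Bmp4, 1.13), with a median of 0.22 (same-day -0.10). Their summed levels were 4.09 to 4.30 in Brg1d/d and 4.33 to 4.66 in the controls. That sum is carried by the bright probes of Ahnak (-0.81, limma adjusted p 0.0694) and Pitx1 (-0.03), which did not pass. The part of these cell types in the values of T, Wnt8a and Wnt5a was not tested.

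**Figure D4:**
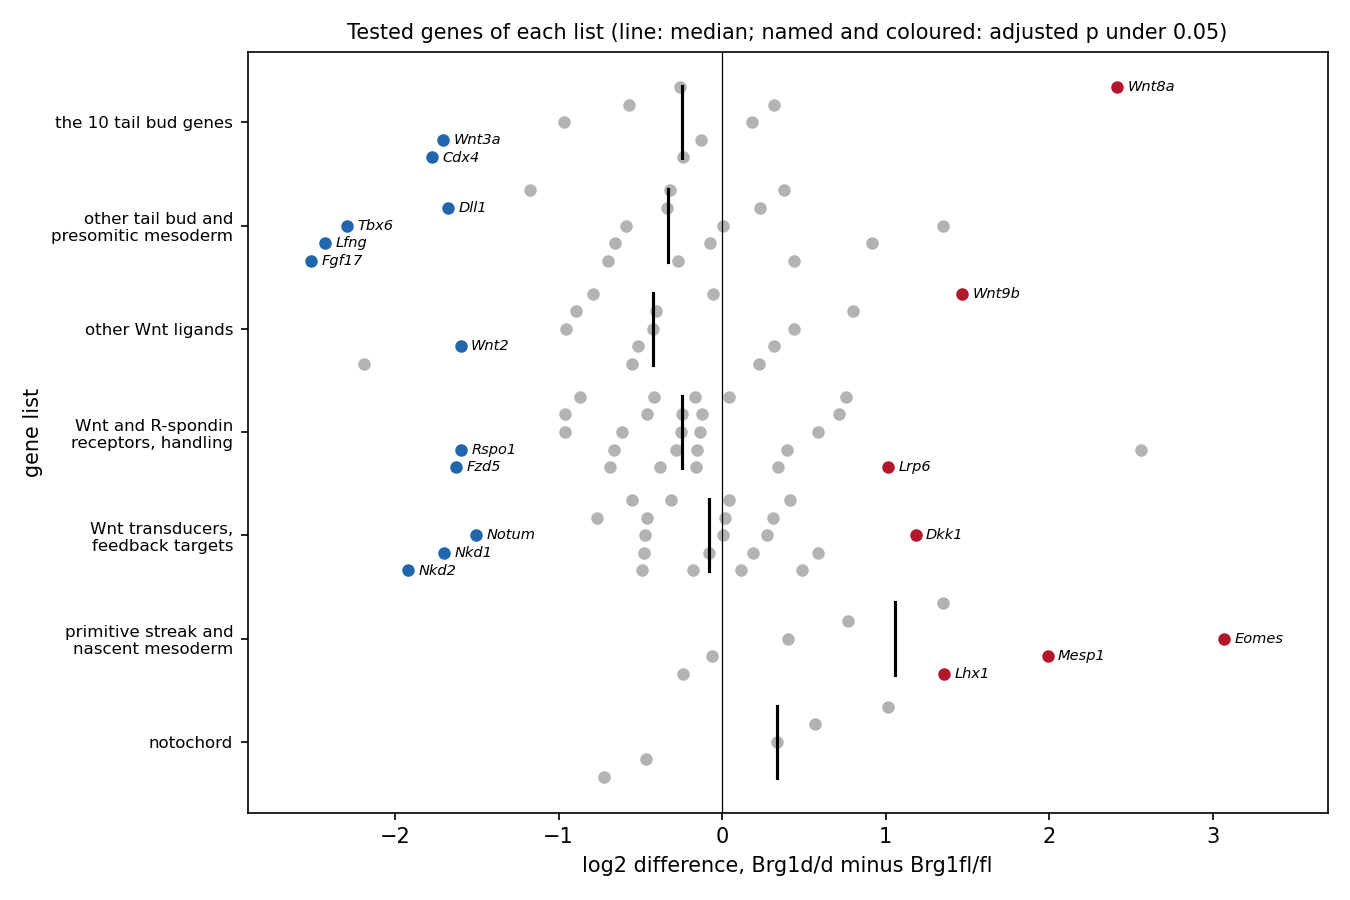
Log2 difference, Brg1d/d minus Brg1fl/fl, of every tested gene in 7 lists; coloured and named points have a limma adjusted p under 0.05 (blue lower, red higher), grey points do not, and vertical lines are list medians. The tail bud and presomitic list holds 4 falls and no rise, and the primitive streak list 3 rises and no fall. Over all genes tested 5.32% were called lower and 5.26% higher. Of the 4 falls, Lfng and Fgf17 passed the filter only through the controls. The lists were chosen with earlier results known, so the counts are a description.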

How the data were processed

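RNA of 6 whole embryo samples (250 ng, Cy3) was hybridised to 1-colour Agilent arrays, 3 per genotype. The deposited scanner files hold background-subtracted processed signal intensity and spot flags made with Agilent Feature Extraction 9.5, per the file headers and the submitters' processing notes. The deposited series table equals that intensity at 100% of spots (relative tolerance 1e-04), and 0 of its columns belong to other samples. Here log2 intensity minus each array's 75th percentile was computed, spots of a probe were averaged without outlier flags (23 probes were left out), and probes were kept if more than 50% of their spots were well above background on all 3 arrays of a genotype. Genotypes were compared with limma 3.58.1 in R 4.3.3 (lmFit, eBayes, Benjamini-Hochberg, with statmod 1.5.0). Figures used matplotlib 3.10.9 in Python 3.11.15. A gene was read through its kept probe of highest mean. The members and lists were chosen with earlier results of these data known. From other lists, up to 4 genes of largest difference among those that passed were named, or the gene of smallest p. Alternatives covered scaling, background, filters, weights, blocks, probe choice and leaving out each sample. Same-numbered samples did not deviate together (correlations -0.13, 0.08 and 0.09), so numbers were not taken as pairs. P-values measure the spread between these samples only.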

Additional observations from a re-analysis of the deposited data

How the results depend on the processing

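Wnt3a, Wnt8a, Cdx4 and Evx1 kept their direction under all 19 other settings and relative to T. The adjusted p of Wnt3a passed in 14, of Wnt8a in 11, of Cdx4 in 9 and of Evx1 in 1. Most of these settings could not have reversed the direction. Some changed only the filter, the probe choice, the SE or the source of the same values and left the difference as it was. Others left out or weighted arrays or added a block, which cannot reverse groups that do not overlap. Only the other scalings, the other background and the ratio to T could have done so. The 3 tail bud genes called, beside 1589 of all genes and 13 in the 4 pathway lists, became 1, 694 and 6 with no filter on dim probes. That setting tests more probes and also changed the SE (0.271 to 0.283 for Wnt3a), and the part of each was not tested. They were 0, 0 and 0 when scan day was a block (2, 1796 and 17 at an unadjusted limma p under 0.05), 0, 122 and 0 with the labelling batch as a block (3, 2227 and 19), and 0, 572 and 8 with the replicate number as a block (4, 4410 and 28), where limma adjusted p was 0.0528 for Wnt3a, 0.0536 for Wnt8a and 0.0884 for Cdx4. Array weights gave 8397 of the 15023 genes tested and 44 of the pathway lists, and the cause was not tested. The lowest adjusted p of Wnt3a (0.00100), Wnt8a (0.000467) and Cdx4 (0.00602) and the only pass of Evx1 came from this limma setting. Those lowest values are therefore not a measure of support particular to these genes. Leaving out 1 sample gave 0 to 3 tail bud genes, 306 to 2918 of all genes and 1 to 16 of the lists. The adjusted p of Wnt3a was 0.380 with scan day and 0.197 with the labelling batch. That of Wnt8a was 0.0640 with no filter, 0.453 with scan day and 0.273 with the labelling batch. That of Cdx4 was 0.0830 with no filter, 0.0514 with slide as a random block, 0.488 with scan day and 0.321 with the labelling batch. Differences that changed sign had not passed: T was 0.28 with array weights and 0.04 without control 1, Sp5 0.45 and 0.27 likewise, Wnt5a 0.14 and Rspo3 0.30 when scan day or labelling batch was the block, Rspo3 0.0053 without Brg1d/d 1 and Cdx1 -0.17 without control 2; the cause was not tested. Leaving out 1 sample gave -0.55 to 0.0376 for T, -0.17 to 0.55 for Cdx1, -0.49 to 0.27 for Sp5, -1.01 to 0.0053 for Rspo3, -0.43 to -0.06 for Wnt5a and 0.16 to 0.56 for Cdx2.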
